A study of Mus musculus with 6 samples.

Results

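Messenger RNA of the mitochondrial ribosomal proteins and of Malsu1 was read in whole retinas of DBA/2J mice, an inbred strain in which many animals develop raised intraocular pressure and glaucoma as they age. The members are the genes whose symbol in the platform annotation begins with Mrpl or Mrps and a digit, together with Malsu1. They number 77 of the 18193 genes that the annotation names from probe sets of a single gene: 47 Mrpl genes of the large subunit, 29 Mrps genes of the small subunit, and Malsu1. Mrpl30 and Mrpl53 occur only on probe sets shared with other genes and have no value here. All animals were female and unmanipulated as far as the labels say, with 3 retinas at 8 months and elevated pressure and 3 retinas at 3 months and normal pressure, each from its own mouse and on its own Affymetrix array. The final intraocular pressure averaged 27.4 ± 2.67 mmHg in the 8-month eyes, against 17.5 ± 1.99 mmHg in the 3-month eyes (SD over 3 eyes each). Age and pressure differed together, so they cannot be told apart, and right eyes occurred only at 8 months (retinas 2 and 3). No other strain was given in the labels, so ageing of DBA/2J mice and ageing in general cannot be told apart either.

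Mitochondria translate the few proteins of their own genome, all of them parts of the respiratory chain and ATP synthase, on ribosomes of their own. The RNA of these ribosomes is mitochondrial, whereas every ribosomal protein is encoded in the nucleus, made in the cytosol and imported. Some of these proteins descend from bacterial ribosomal proteins and carry their numbers, and others were added during the evolution of mitochondria. Photoreceptors pack mitochondria into their inner segments, and the axons of retinal ganglion cells, the cells lost in glaucoma, are rich in them before they become myelinated. MALSU1 is an assembly factor known from human cells, where it binds uL14m, the product of MRPL14, on the maturing large subunit together with the microprotein of MIEF1 and the acyl carrier protein encoded by NDUFAB1, and keeps the small subunit from joining too early.

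The deposited values are log2 intensities, 1 per probe set and retina. A probe set was used where the third highest of its 6 values reached 4, which kept 127 of the members' 158 probe sets and at least 1 for each of the 77 genes. Each gene was then read from its kept probe set of highest mean. Rod markers, 8 of 9 of which were read, averaged 11.48, 11.49 and 11.56 in the 8-month retinas and 11.70, 11.72 and 11.61 in the 3-month retinas, as the label retina calls for. Lens crystallins stood high in 8-month retina 1 and 3-month retina 3, with marker means of 10.47, 5.08 and 5.56 at 8 months and 6.92, 5.57 and 11.54 at 3 months.

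Most members were slightly lower at 8 months. The difference, 8 months minus 3 months on the log2 scale, was below 0 in 66 of 77 genes (85.7%), against 63.5% of the 11219 genes tested. Its median over the members was -0.160, against -0.058 over all genes. It ran between -0.57 and 0.24, so no member differed by as much as a factor of 2. No member passed the adjusted threshold of 0.05 in limma, at which 0.00891% of genes, or 0.00477% of probe sets, were called, that being 1 gene, Glb1l3. At an unadjusted limma p under 0.05, 23 members (29.9%) were lower, against 11.5% of all genes, and 0 were higher, against 3.58% of all genes. In 25 members (32.5%) all 3 values at 8 months lay below all 3 at 3 months, as in 16.9% of all genes, and in 0 members did they lie above, as in 6.05%. In whole retina, fewer cells of a type and less RNA per cell cannot be told apart.

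**Figure D1:**
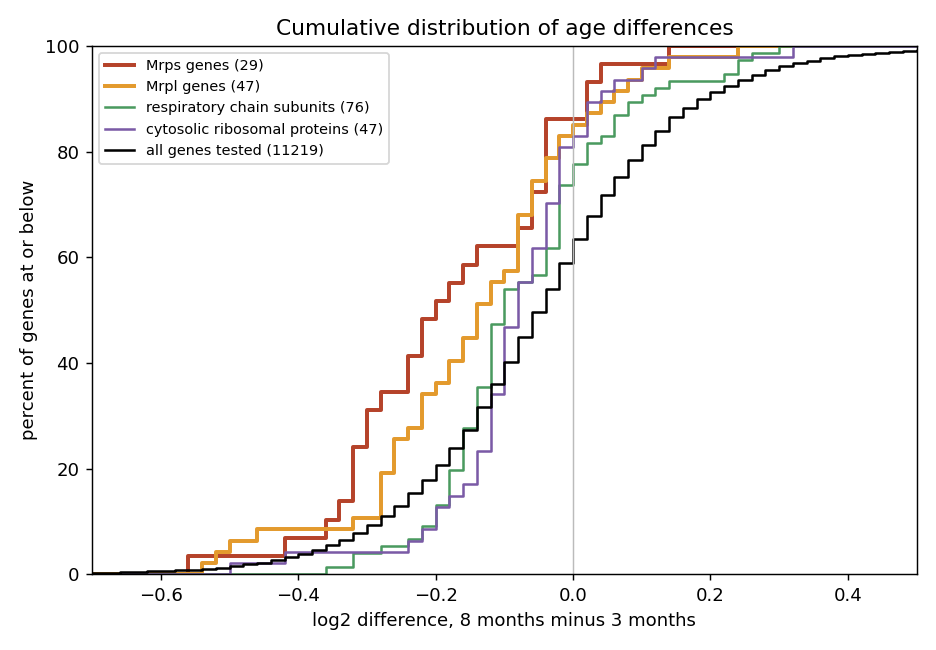
Cumulative share of genes (vertical axis, percent) at or below each log2 difference, 8 months minus 3 months (horizontal axis), for the Mrps genes, the Mrpl genes, respiratory chain subunits, cytosolic ribosomal proteins and all genes tested. The Mrps and Mrpl curves lie left of that of all genes between -0.54 and 0, with medians of -0.205 and -0.142, against -0.058 for all genes.

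Malsu1 (chr6:49073795-49139144 in GRCm38.p6) was the member with the smallest p. Its values were 7.05, 7.17 and 7.08 in the 8-month retinas, against 7.65, 7.62 and 7.75 in the 3-month retinas. The ages did not overlap, and the gap between them was wider than the range within either age. Malsu1 averaged 7.10 ± 0.06 in the older retinas, against 7.67 ± 0.07 in the younger ones (SD over 3 retinas each), a log2 difference of -0.57 with a standard error of 0.08, or 0.673 of the 3-month intensity. The unadjusted limma p was 0.000194 and the limma adjusted p 0.177, so the difference did not pass after adjustment over all 20973 probe sets. It lay between -0.62 and -0.49 in 16 alternative settings, where the limma adjusted p ran between 0.0985 and 0.664. Malsu1 was put beside the ribosomal proteins with this difference already known, so its place among them carries no weight of its own. The other probe set of Malsu1 read between 2.96 and 3.47 in the 6 retinas and was not used.

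The genes of the proteins that MALSU1 is known to meet in human cells were read beside it, and no difference between them and Malsu1 was tested. Mrpl14 read 4.58, 4.60 and 4.56 at 8 months, against 5.51, 4.45 and 4.61 at 3 months. The ages overlapped, and 3-month retina 1 alone stood high. The Mrpl14 difference was -0.27 with a standard error of 0.26 (limma adjusted p 0.629), and it turned to 0.05 when 3-month retina 1 was left out and to -0.48 when 3-month retina 2 was left out. Ndufab1 and Mief1, named here after their values were seen, had differences of -0.16 and -0.14, with limma adjusted p of 0.359 and 0.530. Ndufab1 did not overlap between the ages, at 9.62 to 9.66 at 8 months and 9.74 to 9.84 at 3 months, whereas Mief1 did.

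Of the 47 large subunit genes, 40 were lower, with a median difference of -0.142. At an unadjusted limma p under 0.05, 9 were lower (19.1%, beside 11.5% of all genes) and 0 higher. In 10 (21.3%, beside 16.9% of all genes) the ages did not overlap. Mrpl27, the counterpart of bacterial L27, which lies next to the site where peptide bonds form, had the smallest p among them (chr11:94653770-94661932). It read 7.0, 7.22 and 7.24 at 8 months, against 7.89, 7.50 and 7.68 at 3 months, with every 8-month value below every 3-month value. The Mrpl27 difference was -0.54 with a standard error of 0.12 (limma adjusted p 0.218).

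Mrpl46 and Mrpl55, proteins without a counterpart among bacterial ribosomal proteins, followed by p. Mrpl46 read 5.82, 5.94 and 6.13 at 8 months, against 6.59, 6.21 and 6.60 at 3 months, a difference of -0.50 (standard error 0.14, limma adjusted p 0.235). Mrpl55 read 5.78, 5.67 and 6.06 at 8 months, against 6.32, 6.23 and 6.37 at 3 months, a difference of -0.47 (standard error 0.12, limma adjusted p 0.223). Neither overlapped between the ages, and in both the 8-month retina 3 was the nearest to the younger retinas. The other large subunit genes at an unadjusted p under 0.05 differed by -0.32 to -0.23. They were Mrpl2 and Mrpl3, both of which reach toward the peptidyl transferase centre, Mrpl22, a wall of the exit tunnel, Mrpl18, of the central protuberance, Mrpl20 and Mrpl36. Mrpl22 read 6.64, 6.78 and 6.66 at 8 months, against 7.0, 6.82 and 7.12 at 3 months. Mrpl2 read 6.91, 7.09 and 7.10 at 8 months, against 7.33, 7.17 and 7.38 at 3 months. In Mrpl22, Mrpl2, Mrpl3 and Mrpl36 the ages were apart by a narrow margin, and in Mrpl18 and Mrpl20 they overlapped. Mrpl19 lay just outside, at 6.15, 6.22 and 6.25 at 8 months and 6.46, 6.27 and 6.70 at 3 months, a difference of -0.27 with an unadjusted limma p of 0.0553.

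The remaining large subunit genes, each read from its probe set of highest mean, did not pass even without adjustment. In Mrpl13, Mrpl15, Mrpl39, Mrpl44, Mrpl50 and Mrpl52 another kept probe set was lower at an unadjusted limma p under 0.05. Mrpl35 and Mrpl45, which holds the ribosome at the inner membrane, had differences of -0.54 and -0.30 that leaned on 3-month retina 1, which read 5.71 and 5.57. The other 3-month retinas read 4.78 and 4.85 for Mrpl35 and 4.72 and 4.86 for Mrpl45. The 7 higher genes, each read from its probe set of highest mean, were Mrpl28, Mrpl32, Mrpl33, Mrpl34, Mrpl39, Mrpl49 and Mrpl57. Mrpl39 differed by 0.00 there, and its other kept probe set by -0.35 (limma adjusted p 0.269). Mrpl57 had the highest difference of any member, 0.24, at 7.22, 7.11 and 7.05 at 8 months and 7.13, 6.99 and 6.55 at 3 months. The ages overlapped there, with a limma adjusted p of 0.493. The other kept probe set of Mrpl57 differed by -0.20 (limma adjusted p 0.393). With all kept probe sets of a gene averaged, 4 large subunit genes were higher, by at most 0.06.

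Of the 29 small subunit genes, 25 were lower, with a median difference of -0.205. At an unadjusted limma p under 0.05, 13 were lower (44.8%, beside 11.5% of all genes) and 0 higher. In 14 (48.3%, beside 16.9% of all genes) the ages did not overlap. The difference between the subunits was not tested. Over all kept probe sets the medians had the other order, at -0.138 for the large and -0.117 for the small subunit. Mrps28, which is related to part of bacterial S1, had the smallest p among the small subunit genes (chr3:8802146-8923857). It read 7.12, 7.26 and 7.26 at 8 months, against 7.90, 7.63 and 7.83 at 3 months. The ages were wide apart, with a difference of -0.57, a standard error of 0.10 and a limma adjusted p of 0.179.

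Mrps33, of the head of the subunit and without a bacterial counterpart, read 8.76, 8.78 and 8.97 at 8 months, against 9.30, 9.13 and 9.17 at 3 months, a difference of -0.36 (standard error 0.09, limma adjusted p 0.223). Mrps30 read 8.65, 8.56 and 8.68 at 8 months, against 9.05, 8.86 and 8.99 at 3 months, a difference of -0.34 (standard error 0.09, limma adjusted p 0.223). Neither gene overlapped between the ages. Mrps9, whose bacterial counterpart reaches into the decoding region, read 6.77, 6.81 and 6.82 at 8 months, against 7.06, 7.04 and 7.25 at 3 months. Its difference of -0.32 (limma adjusted p 0.239) came from a probe set whose suffix marks several transcripts of the gene, and the 3 other kept probe sets of the gene gave -0.15, -0.09 and 0.06. Mrps16 differed by -0.33 and Mrps11, of the platform that holds the messenger RNA, by -0.28, with limma adjusted p of 0.257 and 0.280. Mrps34, which in mice is needed for a stable small subunit, read 4.99, 5.12 and 5.16 at 8 months, against 5.40, 5.27 and 5.37 at 3 months, a difference of -0.25. Mrps23 read 7.22, 7.37 and 7.50 at 8 months, against 7.71, 7.54 and 7.87 at 3 months, a difference of -0.34. All of these were without overlap. Mrps10, Mrps18a, Mrps18b, Mrps26 and Mrps31 also had an unadjusted limma p under 0.05, with differences between -0.43 and -0.20. The 4 higher genes were Mrps6, Mrps14, Mrps21 and Mrps25, of which Mrps25 had the highest difference, 0.13, with overlapping ages. Mrps6 and Mrps21 differed by 0.00 after rounding. The other kept probe set of Mrps21 differed by 0.24 and that of Mrps25 by 0.30 (limma adjusted p 0.424 and 0.546). That of Mrps6 differed by -0.02, and those of Mrps14 by -0.09 and 0.03. With all kept probe sets of a gene averaged, 2 small subunit genes were higher, by at most 0.22, and 1 of them did not overlap between the ages.

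**Figure D2:**
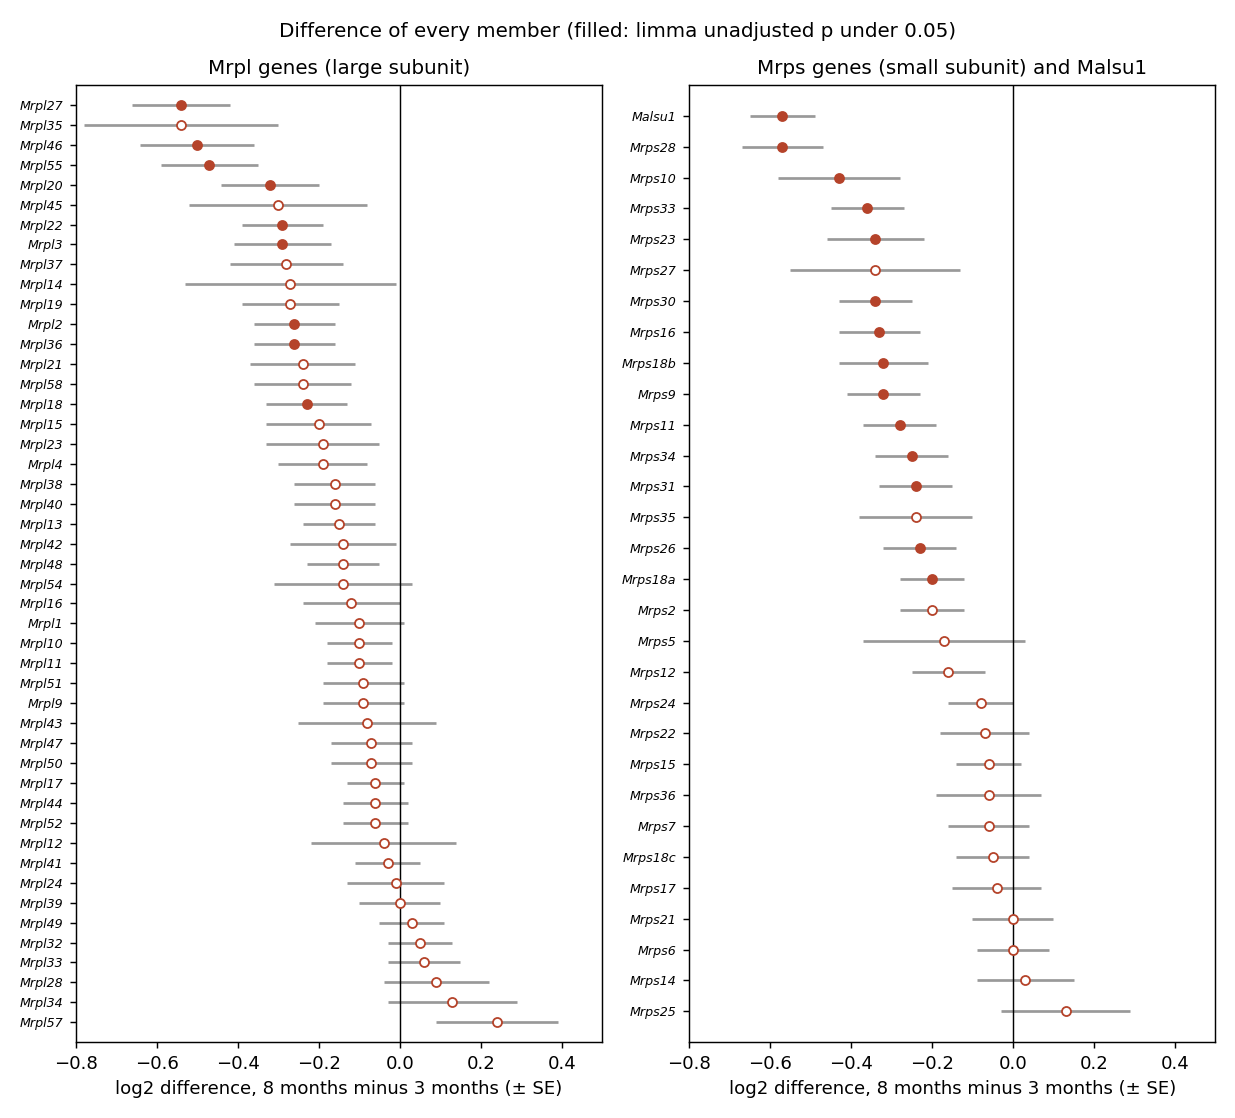
Log2 difference, 8 months minus 3 months (horizontal axis), of each member (1 per line), the Mrpl genes in the left panel and the Mrps genes and Malsu1 in the right, with bars of 1 standard error from the limma fit and filled points at an unadjusted p under 0.05. Points left of 0 are lower at 8 months. Malsu1 and Mrps28 (-0.57 each) lie farthest left and Mrpl57 (0.24) farthest right.

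The mammalian ribosome holds 3 relatives of bacterial S18, and their genes differed in unequal measure. Mrps18a read 6.52, 6.50 and 6.49 at 8 months, against 6.66, 6.67 and 6.80 at 3 months, a difference of -0.20. Mrps18b read 6.96, 6.93 and 7.01 at 8 months, against 7.48, 7.07 and 7.29 at 3 months, a difference of -0.32. Mrps18c read 8.85, 8.91 and 8.91 at 8 months, against 8.98, 8.81 and 9.01 at 3 months, a difference of -0.05 that turned to 0.04 under median centring and to 0.01 under cyclic loess or without the crystallin-rich retinas. Mrps18a and Mrps18b did not overlap between the ages and Mrps18c did. Their limma adjusted p were 0.305, 0.293 and 0.820.

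Names and places do not always match in this family. Structures place the products of Mrps18a and Mrps30 in the large subunit, and the product of Mrps36 belongs to the 2-oxoglutarate dehydrogenase complex. With the first pair counted in the large subunit and Mrps36 left out, 11 of 49 large subunit genes (22.4%) and 11 of 26 small subunit genes (42.3%) were lower at an unadjusted limma p under 0.05, with medians of -0.145 and -0.214. Mrps36 itself differed by -0.06 (limma adjusted p 0.857).

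Proteins numbered after a bacterial protein (up to 36 in the large and 21 in the small subunit) and those with higher numbers, most of which are mitochondrial additions, were also counted apart. Over all genes, 11.5% were lower at an unadjusted limma p under 0.05. In the large subunit 7 of 27 with a bacterial number (25.9%) and 2 of 20 with a higher number (10%) were. Their medians were -0.186 and -0.113. In the small subunit the counts were 6 of 16 (37.5%) and 7 of 13 (53.8%), with medians of -0.163 and -0.241. The order of these classes therefore differed between the subunits, and it was not tested. Some higher-numbered proteins, Mrps28 among them, do have bacterial relatives.

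The members' counts also differed with their level on the array, a split made after the values were seen, in which intensity stands for the probe set and not for the amount of RNA. Among the 42 members with a mean between 6 and 8, 18 (42.9%) were lower at an unadjusted limma p under 0.05, beside 16.8% of the 3454 genes of that range. Among the 25 members with a mean of 8 or more, 4 (16%) were, beside 8.74% of 3808 genes. Among the 10 members below 6, 1 (10%) was, beside 9.43% of 3957 genes, although all 10 were lower. Median differences in the 3 ranges, going from bright to dim, were -0.066, -0.203 and -0.264 for the members and -0.037, -0.098 and -0.043 for all genes. Of the small subunit genes, 18 of 29 lay in the middle range, and of the large subunit genes 23 of 47. Lower at an unadjusted limma p under 0.05 were 9 of these 18 (50%) and 8 of these 23 (34.8%). At 8 or more they were 3 of 8 small (37.5%) and 1 of 17 large subunit genes (5.88%). Below 6 they were 1 of 3 and 0 of 7, and the contrast between the subunits was not tested.

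The members did not move evenly from retina to retina. Set against each gene's 3-month mean, the large subunit had median deviations of -0.163, -0.189 and -0.120 in the 8-month retinas and 0.064, -0.090 and -0.003 in the 3-month retinas. The small subunit had -0.188, -0.212 and -0.136 at 8 months and 0.093, -0.105 and 0.027 at 3 months. Over all genes these medians were -0.064, -0.056 and -0.039 at 8 months and 0.011, -0.012 and -0.004 at 3 months. Both subunits thus ranked the 6 retinas alike, and 3-month retina 2 came nearest to the older retinas in each. The 8-month retina 1 gave the lowest value of the 6 in 32 of 77 members (41.6%), as in 23.4% of all genes. The 3-month retina 1 gave the highest in 44 members (57.1%), as in 28.2% of all genes. It also gave the highest in 44 of 76 respiratory chain subunits and 21 of 47 cytosolic ribosomal proteins. In these sets 3-month retina 2 likewise had the lowest median of the younger retinas, at -0.042 and -0.059. The 8-month retina 1 gave the lowest value in 16 and 6 of their genes.

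**Figure D3:**
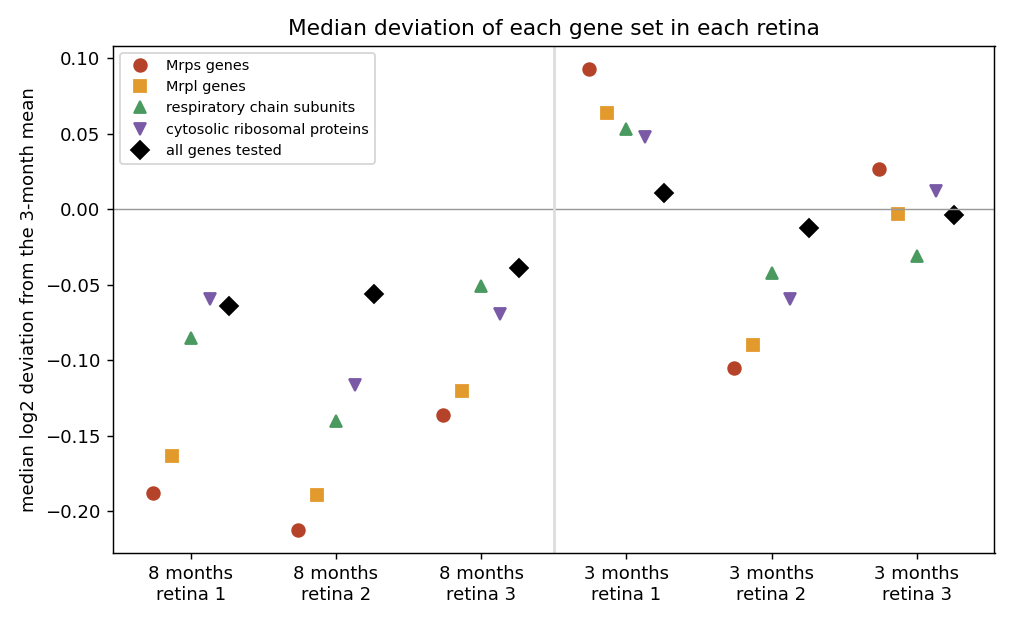
Median deviation from each gene's 3-month mean (vertical axis, log2) in each retina (horizontal axis, 8-month retinas left of 3-month retinas) for the Mrps genes, the Mrpl genes, respiratory chain subunits, cytosolic ribosomal proteins and all genes tested. Both subunits lie below all genes in the 3 older retinas, and among the younger ones they are highest in retina 1 and lowest in retina 2.

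The count of 23 members rested on which retinas were in the fit. It was 11 without 8-month retina 1, 13 without 8-month retina 2, 15 without 8-month retina 3, 12 without 3-month retina 1 and 12 without 3-month retina 3, while without 3-month retina 2 it was 30. Without 3-month retina 1, 1 member was higher at that threshold. Over all genes the same shares ran between 6.90% and 13.6%. Without both crystallin-rich retinas it was 6 (7.79%, beside 5.12% of all genes). Of the 23 genes, 22 stayed below 0 in every alternative that measured them, the exception being Mrps9, and Malsu1, Mrpl27, Mrps28 and Mrps33 kept an unadjusted limma p under 0.05 in all of them.

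**Figure D4:**
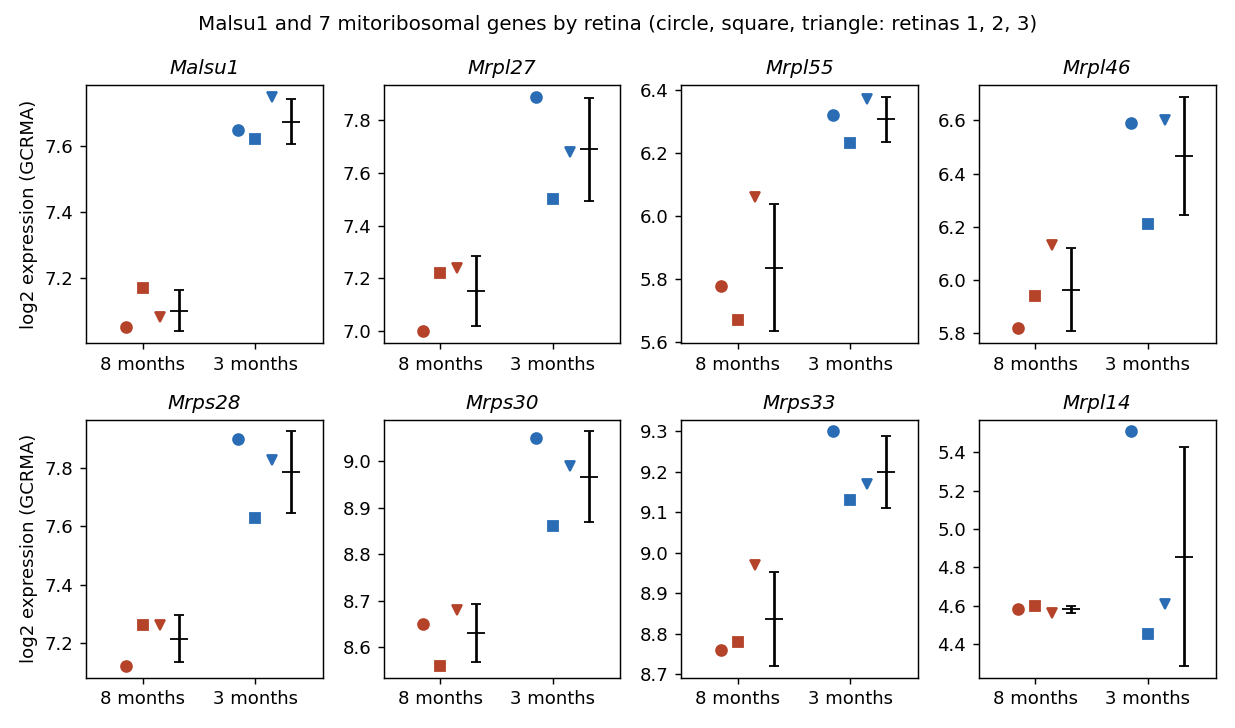
Log2 expression (vertical axis, its own range in each panel) of Malsu1 and 7 ribosomal protein genes in each retina, 8-month retinas left of 3-month retinas, with circle, square and triangle for retinas 1, 2 and 3 and the mean ± SD beside them. In Malsu1, Mrps28 and Mrpl27 all older retinas lie below all younger ones, whereas in Mrpl14 a single 3-month retina, at 5.51, stands above the other 5.

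The array reads 30 members with more than 1 kept probe set. In 11 of them all kept probe sets were lower, in 17 the signs differed, and in 0 did opposite signs both come with an unadjusted p under 0.05. Over the 127 kept probe sets 101 were lower, and 33 (26%) were so at an unadjusted limma p under 0.05, beside 10.3% of all probe sets, with 0 higher, beside 4.63%. The ages did not overlap in 39 of them that were lower (30.7%, beside 14.9% of all probe sets) and in 0 that were higher (beside 6.89%). By subunit, 18 of 83 large (21.7%) and 14 of 43 small subunit probe sets (32.6%) were lower at an unadjusted limma p under 0.05. Their median differences were -0.138 and -0.117, beside -0.041 for all probe sets. A second probe set of Mrps23 read 5.36, 5.53 and 5.33 at 8 months, against 5.89, 5.97 and 6.09 at 3 months, a difference of -0.58 with an unadjusted limma p of 0.000494. It was larger in size than the -0.34 of the probe set used for the counts. In Mrpl44, an RNase III relative, the probe set used for the counts differed by -0.06, whereas another read 7.45, 7.43 and 7.45 at 8 months, against 7.99, 7.69 and 7.78 at 3 months, a difference of -0.37 (limma adjusted p 0.223). The choice of probe set thus set the size of the difference in single genes. Averaging all kept probe sets of a gene gave 25 members lower at an unadjusted limma p under 0.05, in place of 23. Their share was 32.5%, beside 11.7% of all genes.

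Members are spread over 17 chromosomes, so most do not share a locus, but Mrpl46 and Mrps11 stand head to head on chromosome 7. Only 41 bases separate their annotated starts, and both were lower without overlap between the ages. The gap is printed from the RefSeq promoter table of GRCm38.p6, plus strand, at chr7:78783090-78783130.
Mrpl46 and Mrps11: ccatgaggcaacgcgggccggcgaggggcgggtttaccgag

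Many nuclear genes of mitochondrial function carry sites for ETS factors such as GABP, for NRF1 or for YY1 near their start. The 250 bases before the start were searched on both strands in the 67 members with a window in that table, and Malsu1 is not among them. The letters CCGGAAG, the core of an ETS site, stood in 17 windows (25.4%), against 7.83% of 27025 genes of all kinds and 10.2% of 17491 protein-coding genes. The palindromic NRF1 consensus, with any base in its middle, stood in 9 windows (13.4%), against 4.23% and 5.84%. The letters AAGATGGCG of a YY1 site stood in 2 windows (2.99%), those of Mrpl36 and Mrps11, against 0.71% and 0.84%. Split by the retina data, the ETS letters stood in 7 of 20 members lower at an unadjusted p under 0.05 (35%) and in 10 of 47 others (21.3%). The NRF1 consensus stood in 0 of 20 and 9 of 47. These splits were not tested, and a match describes the letters only.

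For 4 members that were lower at an unadjusted p under 0.05, the 100 bases before the annotated start show where the ETS letters, in capitals on either strand, stand. They are on the plus strand of GRCm38.p6, Mrpl27 at chr11:94653670-94653769, Mrps18a at chr17:46110904-46111003, Mrps26 at chr2:130563657-130563756 and Mrpl3 at chr9:105053168-105053267.
Mrpl27: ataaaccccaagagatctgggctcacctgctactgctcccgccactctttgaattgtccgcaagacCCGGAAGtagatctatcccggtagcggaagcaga
Mrps18a: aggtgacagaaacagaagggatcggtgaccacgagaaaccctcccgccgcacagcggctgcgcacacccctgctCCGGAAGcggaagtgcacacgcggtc
Mrps26: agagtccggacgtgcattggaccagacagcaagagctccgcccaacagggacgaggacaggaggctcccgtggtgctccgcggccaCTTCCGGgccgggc
Mrpl3: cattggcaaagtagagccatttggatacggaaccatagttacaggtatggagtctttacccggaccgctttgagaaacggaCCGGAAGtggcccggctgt

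Other genes around the mitochondrial ribosome were read from lists of their known roles. Of 3 measured ribosomal proteins with other symbols, 0 had an unadjusted limma p under 0.05, beside 11.5% of all genes lower. Dap3, a small subunit GTP-binding protein, differed by -0.13, and Chchd1 by -0.08, which turned to 0.01 under median centring or without the crystallin-rich retinas. Of 26 assembly factors, 17 (65.4%) were below 0, beside 63.5% of all genes. At an unadjusted limma p under 0.05, 5 (19.2%) were lower and 0 higher. Under median centring 2 were lower (7.69%, beside 5.03% of all genes) and 3 higher. Under quantile normalization or cyclic loess 3 were lower (11.5%, beside 7.18% and 6.95% of all genes) and 2 higher. Without 3-month retina 1, 1 was lower (3.85%, beside 8.84%) and 1 higher. Eral1, a chaperone of the small subunit RNA, read 6.78, 6.80 and 6.88 at 8 months, against 7.22, 7.23 and 7.27 at 3 months, a difference of -0.42 (limma adjusted p 0.182). These ages were far apart for their narrow spread. Mpv17l2 differed by -0.41 (limma adjusted p 0.287).

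Of 12 translation factors, 5 (41.7%, beside 11.5% of all genes) were lower at an unadjusted limma p under 0.05 and 0 higher. The count was 1 under median centring (8.33%, beside 5.03% of all genes). It was 2 (16.7%) under quantile normalization or cyclic loess, beside 7.18% and 6.95% of all genes. The 5 as deposited included Tufm, the elongation factor that brings transfer RNA, at -0.28, and Letm1, an inner membrane protein, at -0.49. Their limma adjusted p were 0.284 and 0.240. Of 18 genes of mitochondrial DNA expression and its regulators, 11 (61.1%) were below 0 and 7 above, beside 63.5% of all genes below. At an unadjusted limma p under 0.05, 7 (38.9%, beside 11.5% of all genes) were lower and 0 higher. The count was 2 (11.1%) under median centring and 3 (16.7%) under quantile normalization or cyclic loess, beside 5.03%, 7.18% and 6.95% of all genes. Tefm, the elongation factor of mitochondrial transcription, read 5.21, 5.15 and 5.25 at 8 months, against 5.58, 5.93 and 6.14 at 3 months, a difference of -0.68 (limma adjusted p 0.207). Tfam, which packs mitochondrial DNA, differed by -0.51 (limma adjusted p 0.255). Both were without overlap. 0 genes of these lists passed the adjusted threshold.

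Other ribosomal and mitochondrial protein genes were read in the same way. Of 47 cytosolic ribosomal protein genes, 3 (6.38%, beside 11.5% of all genes) were lower at an unadjusted limma p under 0.05, with a median of -0.094 and 39 below 0. Of 76 nuclear genes of respiratory chain and ATP synthase subunits, 5 (6.58%) were lower and 2 higher, with a median of -0.113 and 59 below 0. By non-overlap of the ages, the counts lower at 8 months were 14 (29.8%) and 22 (28.9%), beside 32.5% of the members and 16.9% of all genes. Most of these genes have a mean of 8 or more on the array, 36 and 66 of them. In that range the members had 16% lower at an unadjusted p under 0.05, the cytosolic ribosomal proteins 5.56%, the respiratory chain subunits 6.06% and all genes 8.74%. Median differences in that range had another order, at -0.066 for the members, -0.097 for the cytosolic ribosomal proteins, -0.113 for the respiratory chain subunits and -0.037 for all genes. No difference between these sets and the members was tested.

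Values that moved with age beside the members were those of other cell types and of RNA quality. The 5 microglial markers read averaged 6.30, 6.34 and 6.29 at 8 months and 5.72, 5.71 and 5.78 at 3 months, and 2 further ones, Aif1 and Cx3cr1, were below the filter. The means of rod markers, given above, were lower at 8 months by 0.16 without overlap. The means of 5 cone markers were 8.97, 8.90 and 8.95 at 8 months and 9.12, 9.12 and 9.0 at 3 months. Those of 6 ganglion cell markers were 9.09, 9.11 and 9.10 at 8 months and 9.26, 9.22 and 9.15 at 3 months. Cone and ganglion cell means were thus lower at 8 months without overlap, although the ages of only 3 of the 5 and 1 of the 6 genes were apart. Among those cone genes Opn1mw and Gnat2 were lower (-0.48 and -0.44), whereas Pde6c was higher at 8 months (0.34). The means of 5 Müller glial markers were 11.09, 10.91 and 10.94 at 8 months and 10.75, 10.86 and 10.90 at 3 months. They were higher at 8 months without overlap by a narrow margin, and the ages of only 2 of the 5 genes were apart. Bipolar and amacrine cell marker means overlapped. The 3′ minus 5′ log2 signal of Gapdh, a measure of RNA integrity, was 0.755 to 0.811 at 8 months and 0.707 to 0.751 at 3 months, while that of actin overlapped. The part of each in the members' differences was not tested.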

How the data were processed

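The authors deposited log2 intensities per probe set. The submitters' processing notes name GCRMA 1.1.0 and R 1.9.0. Per the labels' protocols, column-purified total RNA of each retina was amplified and biotin-labelled before hybridisation. GCRMA options, scan dates and detection calls are not given in the sources used here. GCRMA as a method compresses weak signals, which can shrink the differences of dim probe sets.

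Of 45101 probe sets, 64 controls were left out, and 20973 with at least 3 values of 4 or more were kept. Ages were compared with limma 3.58.1 in R 4.3.3 (lmFit and eBayes, two-sided, Benjamini-Hochberg over all kept probe sets, threshold 0.05), without covariates. The fit was tested on simulated data. Genes were represented by the kept probe set of highest mean (11219 genes). The 77 members matched GRCm38.p6 by gene ID, and 0 symbols changed. For 9 members that probe set ends in _s_at or _x_at, which can match several genes, so near copies may share signal.

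Members, lists and alternatives were chosen with earlier results of these data known. Named genes were Malsu1, Mrpl14, the 10 large and 8 small subunit genes of smallest p, the 3 S18 relatives and the 2 genes of smallest p in each list of related genes. The number of arrays limits the precision: with 3 retinas per age, p-values rest on the spread among these few animals.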

Additional observations from a re-analysis of the deposited data

How the results depend on the processing

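Both scaling and the choice of retinas moved the counts. Of genes at an unadjusted p under 0.05, 76.2% were lower as deposited, 58% after quantile normalization, 55.2% after cyclic loess and 37.1% after median centring, and the median of all genes was -0.058, -0.018, -0.014 and 0.025. The members' median relative to all genes was -0.102, -0.090, -0.084 and -0.102 in the same order. Members below 0 numbered 66, 61, 59 and 51. Large subunit genes lower at an unadjusted p under 0.05, 9 as deposited, were 3 (6.38%) under each of these scalings. The shares of all genes were 7.18% after quantile normalization, 6.95% after cyclic loess and 5.03% after median centring. Without both crystallin-rich retinas there were 2 large subunit genes (4.26%, beside 5.12% of all genes). Small subunit genes, 13 as deposited, were 8 after quantile normalization (27.6%) and 6 after median centring (20.7%). They were 6 with eye side in the fit (20.7%, beside 7.22% of all genes) and 3 without the crystallin-rich retinas (10.3%). Without less specific probe sets they were 7 (35%, beside 11.3% of all genes). Median centring gave medians of -0.059 for the large and -0.122 for the small subunit, and 0.007 in place of -0.076 for the 3 ribosomal proteins with other symbols. Leaving out 1 retina at a time gave 3 to 16 large (6.38% to 34%) and 6 to 13 small subunit genes (20.7% to 44.8%). Over all genes these shares ran between 6.9% and 13.6%, and without 3-month retina 1 the large subunit had 6.38%, beside 8.84%. Large subunit medians lay between -0.184 (without 3-month retina 2) and -0.082 (without 3-month retina 1). Without 8-month retina 2 the medians were -0.162 for the large and -0.152 for the small subunit, the other order than as deposited. Probe sets past the adjusted threshold, 1 as deposited, were 2 with the filter at 6 or under any of the other scalings, 0 with no filter, with eye side, without the crystallin-rich retinas and whenever 1 retina was left out. The cause of these shifts was not tested. Malsu1 and both subunits' medians kept their direction in every alternative run.

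Equal replicate numbers did not pair the retinas: the correlations of same-numbered retinas were -0.141, 0.064 and -0.283. With the replicate block, 6 large (12.8%) and 10 small subunit genes (34.5%) were lower at an unadjusted p under 0.05, beside 9.16% of all genes. In that fit 0 probe sets passed the adjusted threshold. Signal over background limits the dimmest members, and 31 of 158 probe sets stayed below the filter.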
